A study of Mus musculus with 36 samples.

Results

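The genes of the proteasome were followed in sorted mouse spleen dendritic cells (DCs) after injection of poly IC, a synthetic double-stranded RNA that is sensed by TLR3 and MDA5 and that elicits type I IFN. The members were all genes whose symbol begins with Psma, Psmb, Psmc, Psmd or Psme or is Psmf1 or Pomp, and whose probe was detected (detection p below 0.05) on at least 3 arrays. This rule found 41 of the 9606 genes tested, out of 43 member symbols with a probe. The probes of Psma1 and Psma6 did not reach that limit, and Psma8, Psmb11, Psmd3, Psme2b and Psmf1 had no probe in the annotation used here. Of the 41 genes, 38 were detected on all 36 arrays, the exceptions being Psmc6 (11 arrays), Psmd9 (26 arrays) and Psmd6 (33 arrays).

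Expression was measured on bead arrays in CD11chi CD3- DX5- B220- spleen cells of C57BL/6 mixed bone-marrow chimeras. Knockout and WT DCs were sorted apart by the CD45.2 allele. In the legend of a heat map of 4 h and untreated samples, the study describes a sample as a pool of 6 mice. It does not repeat this for the other arrays. The SDs, SEs and p-values thus measure only the spread between samples, which may be pools, and not that between single mice. Whether any samples shared mice is not given in the labels. The groups were PRR-/- DCs, which lack MDA5 and TLR3, at 4 h after 50 µg poly IC i.p. (4 samples), IFNAR-/- DCs, which lack the type I IFN receptor, at 4 h (4 samples), WT DCs at 4 h (8 samples), IFNAR-/- DCs at 14 h (3 samples), WT DCs at 14 h (6 samples) and unstimulated DCs (8 samples), labelled as untreated and with no genotype. The study describes its pooled negative controls as DCs of both genotypes from chimeras given PBS and DCs of PRR-/- mice given poly IC, and the labels do not say which of these an unstimulated sample was, so that this group may also hold DCs of mice that were not chimeras and had received poly IC. Knockout DCs of such chimeras develop and respond beside WT haematopoietic cells of the same mouse. Arrays 1 and 2 of the PRR-/- 4 h, the IFNAR-/- 4 h and the unstimulated group differed by less than other pairs of samples and were averaged and counted as 1 sample. The median absolute deviation of their log2 differences over genes, scaled to match an SD, was 0.07 to 0.08, against 0.11 to 0.43 in 99 other pairs of a group.

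On the arrays, 10428 to 12326 of 25697 probes were detected. The MDA5 gene Ifih1 had a detected probe on 0 of 5 PRR-/- arrays and 8 of 8 WT arrays at 4 h, and Tlr3 on 1 of 5 and 8 of 8 arrays. The probe of Ifnar1 was detected on 0 arrays of any group and therefore could not check the IFNAR-/- label. Of 11 DC markers 10 were measured, and 8 of these were detected on all 36 arrays. Unstimulated samples 6 to 9 stood apart from unstimulated samples 1 to 5 over all genes (first principal component 11.2 to 20.2 against -19.4 to -7.75), and results that rest on this difference are given without samples 6 to 9 as well. In bulk RNA of this kind, fewer cells of a type and less RNA per cell cannot be told apart.

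The proteasome degrades proteins marked with ubiquitin. Its 20S core is a barrel whose outer alpha rings gate the entry and whose inner beta rings carry the catalytic subunits Psmb5, Psmb6 and Psmb7, and its 19S cap holds ubiquitin receptors and a ring of ATPases that unfold the substrate and feed it into the barrel. In cells exposed to IFN, and constitutively in many immune cells, the catalytic subunits are replaced during assembly by Psmb8 (LMP7), Psmb9 (LMP2) and Psmb10 (MECL-1), which gives the immunoproteasome. The PA28 activator, made of Psme1 and Psme2, can take the place of the cap. The peptides made by these particles are carried by Tap1 and Tap2 into the endoplasmic reticulum and loaded on MHC class I, by which DCs present antigen to CD8+ T cells.

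The promoters of the immunosubunits and of both PA28 genes are shown because these members are the ones known for induction by IFN. Each sequence runs 5′ to 3′ on the gene's strand from 250 bases before to 50 bases after the RefSeq start (GRCm38.p6). The capitals mark matches to the CCAAT letters on the opposite strand (Psmb9) and to the ISRE core (GAAA, any 2 bases, GAAA) on the opposite strand (Psme1), and the Psmb8, Psmb10 and Psme2 windows, without capitals, had no match to any motif reported here. For Psme2 the first of 2 listed windows is shown.
Psmb8, chr17:34197945-34198244, plus strand: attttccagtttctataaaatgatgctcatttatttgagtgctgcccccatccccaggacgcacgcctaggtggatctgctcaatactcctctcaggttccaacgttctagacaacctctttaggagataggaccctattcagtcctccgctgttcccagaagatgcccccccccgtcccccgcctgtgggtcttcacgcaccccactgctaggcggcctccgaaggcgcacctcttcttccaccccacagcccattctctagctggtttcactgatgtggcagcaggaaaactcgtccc
Psmb9, chr17:34187281-34187580, minus strand: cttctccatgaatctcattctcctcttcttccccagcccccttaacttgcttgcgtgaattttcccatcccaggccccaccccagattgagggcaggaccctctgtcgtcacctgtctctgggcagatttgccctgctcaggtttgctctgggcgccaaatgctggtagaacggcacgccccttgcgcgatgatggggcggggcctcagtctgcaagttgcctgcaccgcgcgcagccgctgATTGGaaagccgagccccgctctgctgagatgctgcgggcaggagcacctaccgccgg
Psmb10, chr8:105938343-105938642, minus strand: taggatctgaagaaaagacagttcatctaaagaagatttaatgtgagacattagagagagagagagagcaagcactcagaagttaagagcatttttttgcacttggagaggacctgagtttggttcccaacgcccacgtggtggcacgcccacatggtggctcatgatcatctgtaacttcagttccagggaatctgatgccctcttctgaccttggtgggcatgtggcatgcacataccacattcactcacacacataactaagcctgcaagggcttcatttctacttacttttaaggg
Psme1, chr14:55578244-55578543, plus strand: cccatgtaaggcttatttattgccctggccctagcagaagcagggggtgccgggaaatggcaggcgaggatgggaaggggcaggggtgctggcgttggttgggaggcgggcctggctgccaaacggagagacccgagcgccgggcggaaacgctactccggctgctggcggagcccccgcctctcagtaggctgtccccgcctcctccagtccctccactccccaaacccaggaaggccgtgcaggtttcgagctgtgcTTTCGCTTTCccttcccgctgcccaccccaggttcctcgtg
Psme2, chr14:55591052-55591351, minus strand: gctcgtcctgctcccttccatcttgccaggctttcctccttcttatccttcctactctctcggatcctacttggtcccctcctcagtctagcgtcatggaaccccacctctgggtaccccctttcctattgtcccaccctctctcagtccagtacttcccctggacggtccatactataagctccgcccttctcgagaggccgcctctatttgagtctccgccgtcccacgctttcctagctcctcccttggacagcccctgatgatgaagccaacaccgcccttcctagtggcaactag

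Psmb9, Tap1, Psmb8 and Tap2 lie in this order on chromosome 17, in the MHC. The search covered both strands of the windows of 36 members, while Psmb1, Psmb2, Psmb7, Psmc3 and Psmd7 had none. The ISRE core, a part of the IFN-stimulated response element, which IRFs bind, was in the windows of 4 members (11.1%), namely Psmb3, Psmd4, Psmd9 and Psme1, and in 3.44% of all 32851 promoters of this length. TGACNNNGC, the core of the antioxidant response element, was in 6 members (16.7%) and in 12.4% of all promoters. Those 6 members were Psmb5, Psmb6, Psmc6, Psmd9, Psmd12 and Psme4, with 0 of the 5 immunosubunit and PA28 genes among them. CCAAT was in 13 members (36.1%) and in 37.4% of all promoters. A match is a run of letters in this window and was not tested as a binding site.

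At 4 h the 3 immunosubunits rose above unstimulated DCs in WT DCs, by 2.49-fold for Psmb10 and by 1.36-fold for Psmb8 and Psmb9, although Psmb8 turned to a log2 difference of -0.12 without normalization between arrays, where the median of all genes lay at -0.44. Set against WT DCs of the same time, IFNAR-/- DCs had less of all 3, under each scaling tried. With Psme1 and Psme2 added, 4 of the 5 immunosubunit and PA28 genes rose in WT DCs and 0 fell (median log2 difference 0.45 over the 5, against -0.02 over all genes tested), whereas without normalization 1 of the 5 was called and Psme2 lay at a log2 difference of -0.03. Over all 41 members, 7 rose (17.1%) and 8 fell (19.5%) in WT DCs at 4 h, while 16.9% of all genes tested rose and 29.6% fell. The split between rises and falls depended on the scaling, with 13 higher and 2 lower when arrays were brought to 1 median, where the median of all genes lay at 0.14, and 3 higher and 27 lower without normalization. The share of members that rose was close to that of all genes and the share that fell was below it, and the rises lay in the immunosubunits and PA28 (4 of 7), Psma4, Psma5 and Psme4.

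Psmb10 replaces Psmb7 as the subunit with trypsin-like activity. Its log2 levels (quantile-normalized signals) were 13.13, 13.44, 12.99 and 13.26 in PRR-/- DCs, 11.86, 12.11, 11.79 and 11.87 in IFNAR-/- DCs and 13.16 to 13.44 (median 13.29) in WT DCs at 4 h, against 11.36 to 12.26 (median 12.08) in unstimulated DCs. Every PRR-/- and WT sample lay above every unstimulated sample, whereas the IFNAR-/- samples lay within the unstimulated range. The log2 difference from unstimulated DCs was 1.32 ± 0.11 (SE) in WT DCs (adjusted p = 1.49e-10 by limma), 1.22 ± 0.14 in PRR-/- DCs (adjusted p = 6.25e-08) and -0.08 in IFNAR-/- DCs (adjusted p = 0.826). IFNAR-/- minus WT DCs differed by -1.39 ± 0.14 on the log2 scale (adjusted p = 5.56e-09), and Psmb10 and Psmb9 were the 2 members past a 2-fold difference in this comparison. The second Psmb10 probe gave log2 differences of 1.59 for WT against unstimulated DCs and -1.61 for IFNAR-/- against WT DCs.

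Psmb8 replaces Psmb5 as the subunit with chymotrypsin-like activity. Its log2 levels at 4 h were 10.33, 10.43, 10.35 and 10.32 in PRR-/- DCs, 9.50, 9.47, 9.12 and 9.50 in IFNAR-/- DCs and 10.18 to 10.44 (median 10.36) in WT DCs, against 9.27 to 10.38 (median 9.90) in unstimulated DCs. Unstimulated samples 1 to 5 lay at 9.27 to 9.64 and samples 6 to 9 at 10.17 to 10.38, so that the WT range overlapped samples 6 to 9 only. The log2 difference of WT from unstimulated DCs was 0.44 ± 0.17 (adjusted p = 0.0311) over all unstimulated samples and 0.84 against samples 1 to 5 alone. All 4 IFNAR-/- samples lay below all 8 WT samples (log2 difference -0.95 ± 0.20, adjusted p = 0.00069), a comparison that does not use the unstimulated samples.

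Psmb9 replaces Psmb6, the subunit with caspase-like activity. In PRR-/- DCs at 4 h its log2 levels were 13.04, 13.07, 13.27 and 13.23, in IFNAR-/- DCs 12.20, 12.03, 11.91 and 12.29 and in WT DCs 12.99 to 13.25 (median 13.11), against 12.09 to 13.06 (median 12.73) in unstimulated DCs. The lowest WT sample lay below the highest unstimulated sample, while all 4 IFNAR-/- samples lay below every WT sample and 2 of them below every unstimulated sample. WT DCs exceeded unstimulated DCs by 0.45 ± 0.13 on the log2 scale (adjusted p = 0.00562) and by 0.72 against unstimulated samples 1 to 5 alone. IFNAR-/- DCs were lower than unstimulated DCs by a log2 difference of -0.57 ± 0.16 (adjusted p = 0.0115), which came to -0.30 and was no longer called against samples 1 to 5 alone. Against WT DCs the IFNAR-/- log2 difference of Psmb9 was -1.02 ± 0.16 (adjusted p = 1.28e-05).

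**Figure D1:**
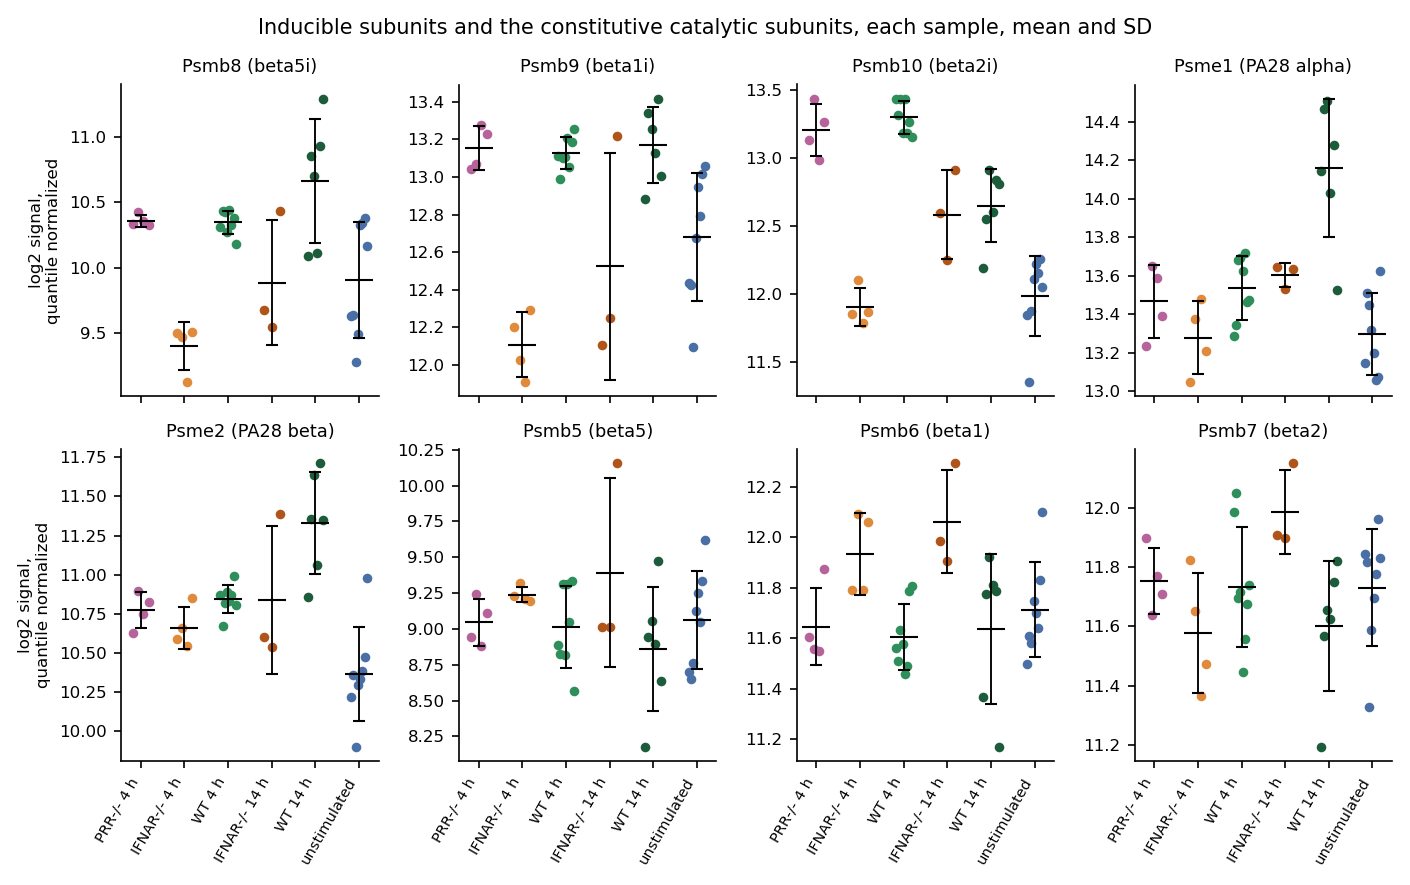
Log2 level (quantile-normalized signal, y axis) of the immunosubunits, the PA28 subunits and the constitutive catalytic subunits (a panel each) in the 6 groups on the x axis, with each sample as a point, the group mean as a long line and the SD as a bar. At 4 h the Psmb10 samples of PRR-/- and WT DCs lie at 12.99 to 13.44, above IFNAR-/- (11.79 to 12.11) and unstimulated (11.36 to 12.26) samples, while the Psmb5 samples of the same groups overlap.

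The PA28 subunits showed a smaller difference at 4 h. Psme2 had log2 levels of 10.62, 10.90, 10.75 and 10.83 in PRR-/- DCs, 10.59, 10.66, 10.54 and 10.85 in IFNAR-/- DCs and 10.67 to 10.99 (median 10.85) in WT DCs, against 9.90 to 10.98 (median 10.35) in unstimulated DCs. The WT samples overlapped both the IFNAR-/- and the unstimulated samples. WT DCs were higher than unstimulated DCs (log2 difference 0.47 ± 0.13, adjusted p = 0.00241), and the log2 difference of IFNAR-/- minus WT DCs was -0.18 ± 0.15 and was not called (adjusted p = 0.445). For Psme1 neither the WT-unstimulated nor the IFNAR-WT difference was called with the brighter probe (log2 differences 0.24 and -0.26), whereas the other Psme1 probe gave 0.40 and -0.55, both called. The Psme1 result at 4 h thus depended on the probe.

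In IFNAR-/- DCs at 4 h, 0 of the 5 immunosubunit and PA28 genes were called above unstimulated DCs and Psmb9 was called below. The Psmb9 call was lost against unstimulated samples 1 to 5 alone (-0.30) and with arrays at 1 median (-0.41). The means of Psmb8, Psmb10 and Psme1 lay below those of unstimulated DCs. That of Psme2 lay above (10.66 against 10.37), without a call. Over all members, 3 rose and 1 fell, against 6.97% of all genes tested that rose and 11% that fell (with arrays at 1 median, 4 rose and 0 fell, and without normalization, 0 rose and 6 fell). The 3 that rose were the cap ATPases Psmc2, Psmc4 and Psmc5, Psmc4 and Psmc5 being named after their values had been seen. The Psmc5 call depended on the probe, with a log2 difference of 0.45 from the probe used and of 0.10, which was not called (adjusted p = 0.823), from the other one. Arrays of the same replicate number deviated together in IFNAR-/- DCs at 4 h and unstimulated DCs (r = 0.453 to 0.723), though the labels name no pairing. With the number as a block over all 36 arrays, arrays 1 and 2 being counted apart, 8 members rose and 1 fell. Without that block, 1 rose and 1 fell when IFNAR-/- sample 3 was left out, and 2 rose and 0 fell without sample 4. In the direct comparison of IFNAR-/- with WT DCs at 4 h, 9 members were higher (22%) and 5 lower (12.2%), while 16.1% of all genes tested were higher and 9.75% lower. With arrays brought to 1 median this split was 7 higher and 8 lower. The 5 lower members were Psmb8, Psmb9, Psmb10, Psma5 and the activator Psme4, and among the 5 immunosubunit and PA28 genes the median log2 difference was -0.95, against 0.02 over all genes tested.

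PRR-/- DCs at 4 h gave values close to those of WT DCs for the immunosubunits. Against unstimulated DCs, which the WT comparison shares, 5 members rose and 7 fell in PRR-/- DCs, against 13.1% and 24.2% of all genes tested (9 and 2 with arrays at 1 median, 1 and 19 without normalization), and 3 rose and 3 fell without PRR-/- sample 3 or sample 4 and 2 rose and 5 fell without sample 5. The log2 differences of PRR-/- from unstimulated DCs were 0.45 for Psmb8 (adjusted p = 0.0836), 0.47 for Psmb9 (adjusted p = 0.0198) and 0.41 for Psme2 (adjusted p = 0.0369), beside 0.44, 0.45 and 0.47 in WT DCs. Against unstimulated samples 1 to 5 alone, the PRR-/- log2 differences were 0.75 for Psmb9 and 0.58 for Psme2, both called. The Psmb9 call was lost when PRR-/- sample 4 or 5 was left out (0.43 and 0.45), and the Psme2 call when sample 3, 4 or 5 was left out (0.37, 0.41 and 0.39). When PRR-/- were set directly against WT DCs at 4 h, 0 members were higher and 0 lower by limma, and 0 passed an unadjusted p of 0.05 or the methods' t-test, while 0.333% of all genes tested were higher and 0.25% lower. The log2 differences of the 41 members ran from -0.19 to 0.08. Their 95% intervals, from the fit without pairing, reached from -0.74 (Psmd6) to 0.52 over all members and from -0.41 to 0.43 over the 5 immunosubunit and PA28 genes. Some were narrower, such as -0.17 to 0.13 for Psmc2. A difference between PRR-/- and WT DCs that lies inside a gene's interval was not excluded by this unpaired fit. Arrays of the same replicate number deviated together in these groups (r = 0.174 to 0.902), which the intervals do not take into account.

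The constitutive catalytic subunits are the counterparts of the immunosubunits. None of Psmb5, Psmb6 and Psmb7 was called between WT and unstimulated DCs at 4 h, with log2 differences of -0.05, -0.11 and 0.00. Psmb5 had log2 levels of 8.94, 9.25, 8.88 and 9.11 in PRR-/- DCs, 9.23, 9.32, 9.21 and 9.20 in IFNAR-/- DCs and 8.56 to 9.33 (median 8.97) in WT DCs, against 8.65 to 9.62 (median 9.08) in unstimulated DCs. Those 4 groups overlapped one another. Psmb6 was higher in IFNAR-/- than in WT DCs by 0.33 on the log2 scale at 4 h (adjusted p = 0.0383), a call that was lost without IFNAR-/- sample 3 or 5, without normalization (0.40) and with arrays at 1 median (0.19).

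Of the 12 subunits of the constitutive core measured, 2 rose and 1 fell in WT DCs at 4 h (median log2 difference -0.06), beside 16.9% and 29.6% of all genes tested. The direction of this group turned with the scaling (5 higher and 0 lower with arrays at 1 median, 1 higher and 8 lower without normalization). The alpha-ring subunits Psma4 and Psma5 rose, Psma4 being named after its values had been seen. Psma5 had log2 levels of 13.71, 13.20, 12.95 and 13.25 in PRR-/- DCs, 13.24, 12.86, 12.76 and 12.66 in IFNAR-/- DCs and 13.19 to 13.81 (median 13.27) in WT DCs at 4 h, against 12.44 to 13.29 (median 12.89) in unstimulated DCs. Its WT range reached above that of the unstimulated samples but overlapped it (log2 difference 0.53 ± 0.14, adjusted p = 0.00187), and the lower level in IFNAR-/- than in WT DCs (log2 difference -0.50 ± 0.17, adjusted p = 0.0236) was not called without IFNAR-/- sample 3, 4 or 5. The non-catalytic ring subunit Psmb1 fell in WT DCs (log2 difference -0.33, adjusted p = 0.0445), a call that was lost against unstimulated samples 1 to 5 alone (-0.14).

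The 19S cap took the direction opposite to the immunosubunits in IFNAR-/- against WT DCs at 4 h. Of its 16 measured genes 6 were higher and 0 lower in IFNAR-/- DCs (median log2 difference 0.27), beside 16.1% and 9.75% of all genes tested. The split was 6 higher and 1 lower with arrays at 1 median, and 7 higher and 0 lower without normalization. The 6 were the ATPases Psmc2, Psmc3, Psmc4 and Psmc5 and the non-ATPases Psmd1 and Psmd4, with Psmc4, Psmc5 and Psmd1 named after their values had been seen, and the other 3 of the 9 higher members were Psmb2, Psmb6 and Psme3. Second probes of Psmc5 and Psmb2 gave log2 differences of 0.43 and 0.25 in this comparison, neither of them called. Against unstimulated DCs, 5 of the 16 fell and 0 rose in WT DCs at 4 h (median log2 difference -0.02), beside 29.6% of all genes tested that fell, and this direction depended on the scaling, with 2 higher and 0 lower at 1 median and 0 higher and 13 lower without normalization.

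Psmc2, an ATPase of the cap, had log2 levels of 12.17, 11.93, 11.87 and 12.18 in PRR-/- DCs, 12.56, 12.71, 12.56 and 12.57 in IFNAR-/- DCs and 11.96 to 12.18 (median 12.05) in WT DCs at 4 h, against 12.08 to 12.51 (median 12.41) in unstimulated DCs. Each IFNAR-/- sample lay above every PRR-/- and WT sample. IFNAR-/- minus WT DCs gave a log2 difference of 0.54 ± 0.07 (adjusted p = 1.48e-06), while WT minus unstimulated DCs gave -0.29 ± 0.06 (adjusted p = 0.00019), a fall that came to 0.02 with arrays at 1 median. Psmd4, a ubiquitin receptor of the cap, had log2 levels of 12.51, 12.16, 12.30 and 12.48 in PRR-/- DCs, 12.89, 12.83, 12.59 and 12.78 in IFNAR-/- DCs and 12.14 to 12.62 (median 12.40) in WT DCs at 4 h, against 12.68 to 13.32 (median 12.98) in unstimulated DCs. Every PRR-/- and WT sample lay below every unstimulated sample. Its log2 difference of WT from unstimulated DCs was -0.59 ± 0.10 (adjusted p = 1.2e-05), the lowest of the cap, and that of IFNAR-/- from WT DCs was 0.37 ± 0.12 (adjusted p = 0.0233), which was not called without IFNAR-/- sample 1-2, 3 or 5. With arrays at 1 median these values came to -0.20 and 0.12, neither of them called. Without normalization the IFNAR-/- minus WT value (0.34) was not called. Psmd13, a scaffold subunit of the cap, was lower in WT than in unstimulated DCs (log2 difference -0.51, adjusted p = 0.00153). This was not called when unstimulated samples 1 to 5 alone were used (-0.24) or with arrays at 1 median (-0.27).

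**Figure D2:**
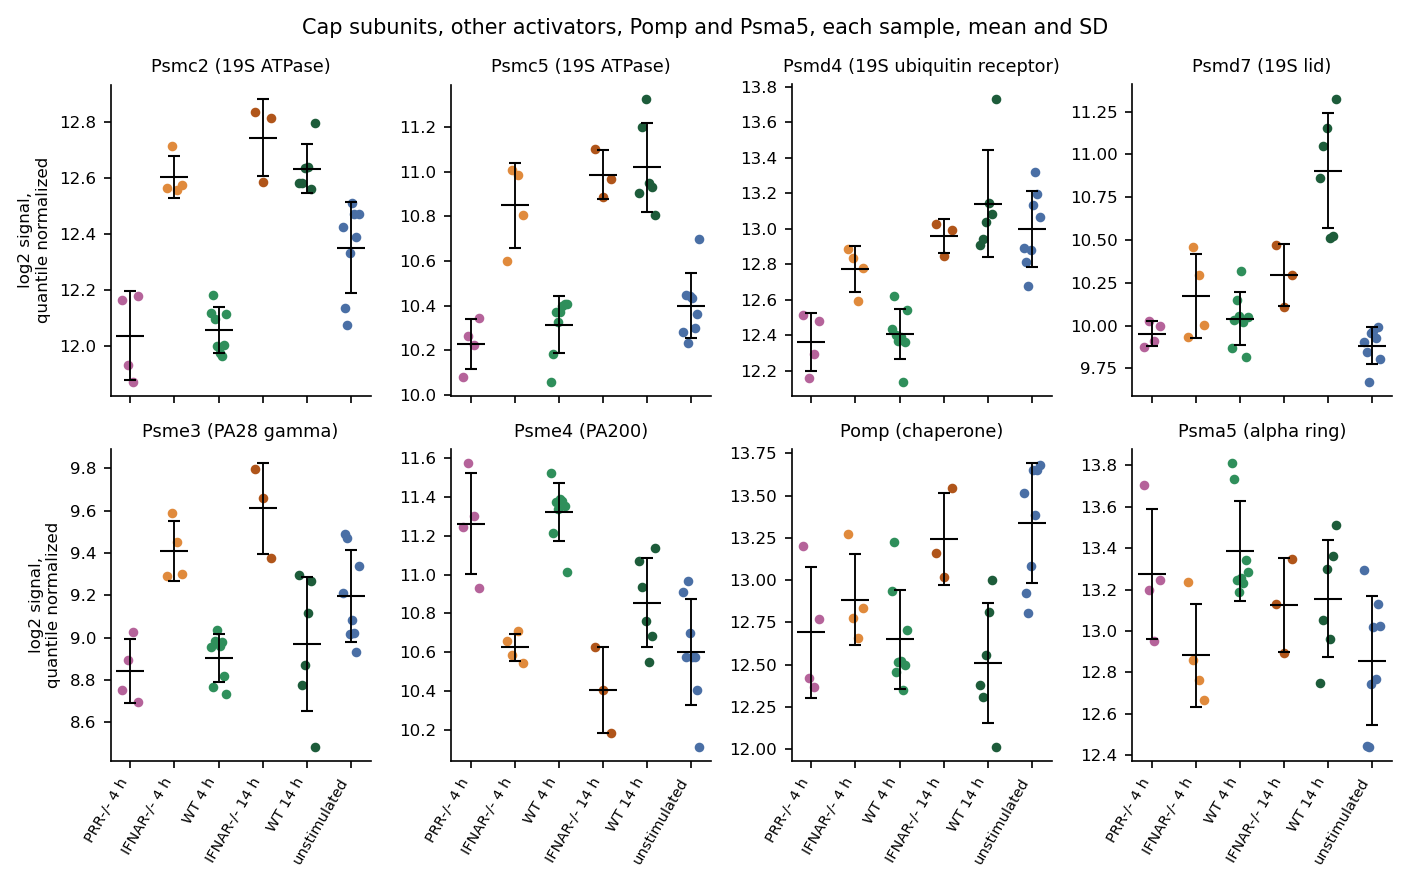
Log2 level (quantile-normalized signal, y axis) of 4 cap subunits, Psme3, Psme4, Pomp and Psma5 (a panel each) in the 6 groups on the x axis, with each sample as a point, the group mean as a long line and the SD as a bar. Psmc2 lies higher in every IFNAR-/- than in every WT sample at 4 h, and Psmd7 is highest in WT DCs at 14 h, where its mean lies 1.02 above that of unstimulated DCs.

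At 14 h the rise in WT DCs covered both PA28 subunits as well as the 3 immunosubunits. All 5 rose above unstimulated DCs (median log2 difference 0.76, against -0.01 over all genes tested), and 4 of the 5 did so without normalization between arrays. Over all members 12 rose (29.3%) and 5 fell (12.2%) in WT DCs at 14 h, while 19.6% of all genes tested rose and 27.7% fell. Other scalings gave 18 rises and 3 falls (1 median) or 8 and 6 (no normalization). In IFNAR-/- DCs at 14 h, 8 members rose (19.5%) and 0 fell, against 5.32% and 5.41% of all genes tested, and 3 rose without IFNAR-/- sample 1 or sample 3. Among the 5 immunosubunit and PA28 genes, Psmb10 was the one that rose in IFNAR-/- DCs at 14 h, and it did so in that group by 0.60 ± 0.15 on the log2 scale (adjusted p = 0.00961), a call that was lost without IFNAR-/- sample 3 (0.44).

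At 14 h the log2 levels of Psmb10 were 12.59, 12.25 and 12.91 in IFNAR-/- DCs and 12.19 to 12.91 (median 12.71) in WT DCs. The groups overlapped, and their log2 difference was -0.07 ± 0.16 (adjusted p = 0.866). In WT DCs Psmb10 was lower at 14 h than at 4 h (log2 difference -0.65, adjusted p = 0.000101), whereas in IFNAR-/- DCs it was higher at 14 h than at 4 h (log2 difference 0.68 ± 0.17, adjusted p = 0.0123), a call that was also lost without IFNAR-/- sample 3 at 14 h (0.52).

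Psmb8 had log2 levels of 9.67, 9.55 and 10.43 in IFNAR-/- DCs and 10.09 to 11.30 (median 10.78) in WT DCs at 14 h. IFNAR-/- samples 1 and 2 lay below every WT sample, and sample 3 lay within the WT range. For Psmb9 the levels were 12.11, 12.25 and 13.22 in IFNAR-/- and 12.88 to 13.42 (median 13.19) in WT DCs, again with sample 3 within the WT range. The log2 difference of IFNAR-/- minus WT DCs was -0.78 ± 0.24 for Psmb8 (adjusted p = 0.0105) and -0.65 ± 0.18 for Psmb9 (adjusted p = 0.00711). Both calls were lost without IFNAR-/- sample 1 (-0.68 and -0.44) or sample 2 (-0.61 and -0.51).

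PA28 was at its highest in WT DCs at 14 h. Psme1 had log2 levels of 13.64, 13.53 and 13.64 in IFNAR-/- DCs and 13.53 to 14.51 (median 14.21) in WT DCs at 14 h, against 13.06 to 13.63 (median 13.26) in unstimulated DCs. WT minus unstimulated DCs gave a log2 difference of 0.86 ± 0.12 (adjusted p = 8.91e-07), and IFNAR-/- minus WT DCs gave -0.56 ± 0.16 (adjusted p = 0.00643). The IFNAR-/- samples lay at the low end of the WT range and overlapped it. Psme2 had log2 levels of 10.60, 10.54 and 11.38 in IFNAR-/- DCs and 10.86 to 11.71 (median 11.35) in WT DCs. Its IFNAR-/- sample 3 again stood within the WT range while samples 1 and 2 lay below it. The log2 difference was 0.96 ± 0.14 for WT minus unstimulated DCs (adjusted p = 1.04e-06) and -0.49 ± 0.18 for IFNAR-/- minus WT DCs (adjusted p = 0.0322), the second being lost without IFNAR-/- sample 1 or 2 (-0.37 and -0.34).

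**Figure D3:**
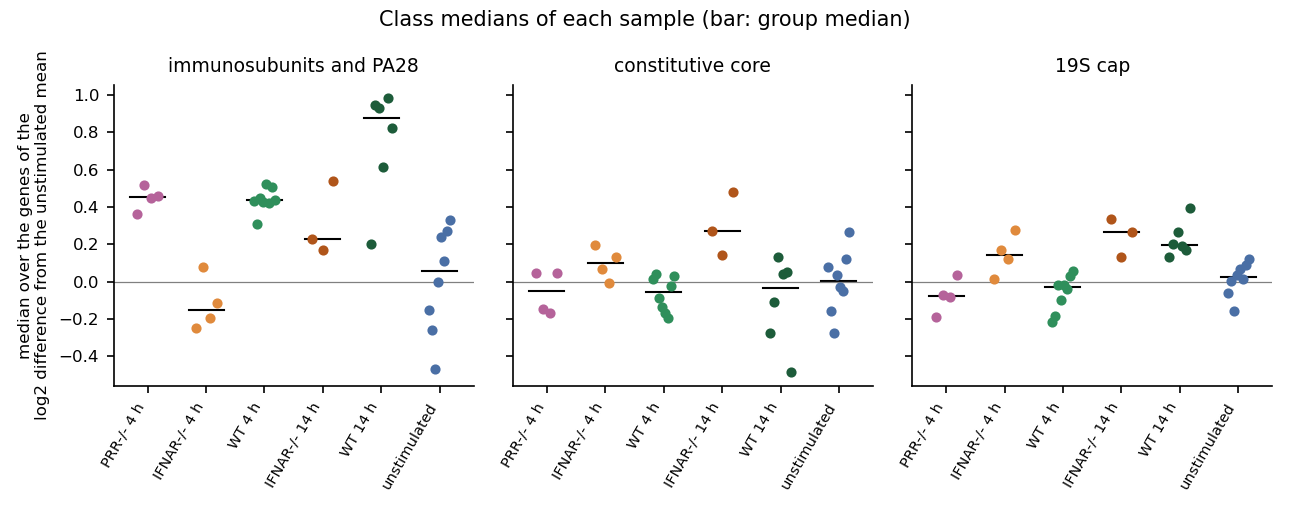
Median over the genes of each class (immunosubunits and PA28, constitutive core, 19S cap) of the log2 difference from the mean of the unstimulated samples (y axis), with each sample as a point in its group on the x axis and the group median as a line. For the immunosubunits and PA28, PRR-/- and WT samples at 4 h lie at 0.36 to 0.52 and 0.31 to 0.53, against -0.25 to 0.08 in IFNAR-/- samples, and the core and cap turn direction against unstimulated DCs with the scaling of the arrays.

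In the direct comparison at 14 h, 9 members were higher and 6 lower in IFNAR-/- than in WT DCs (22% and 14.6%), while 17.9% of all genes tested were higher and 15.3% lower. Arrays brought to 1 median gave 5 higher and 6 lower, and no normalization gave 15 higher and 0 lower. With 3 IFNAR-/- samples, the count fell to 9 without sample 1 (6 higher, 3 lower) or sample 3 (3 higher, 6 lower), to 2 when only these groups were fitted, and to 0 with the methods' t-test after Benjamini-Hochberg adjustment, which had 11 members at an unadjusted p of 0.05 or less. Of the 5 immunosubunit and PA28 genes 4 were lower and 0 higher (median log2 difference -0.56, against 0.00 over all genes tested), with 3 lower at 1 median and 0 called without normalization, where their median was -0.27 and that of all genes was 0.18. Of the 12 core genes 6 were higher and 0 lower, with a median log2 difference of 0.40. The count of higher core genes was 3 with arrays at 1 median, 9 without normalization, 1 when only the groups of this comparison were fitted, 2 without IFNAR-/- sample 3 and 4 without WT sample 6.

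The core genes that were higher in IFNAR-/- than in WT DCs at 14 h were Psma2, Psmb2, Psmb3, Psmb4, Psmb6 and Psmb7. Psmb3, a non-catalytic ring subunit, had log2 levels of 12.66, 12.67 and 12.63 in IFNAR-/- DCs and 10.79 to 12.35 (median 12.00) in WT DCs. All 3 IFNAR-/- samples lay above all 6 WT samples, of which sample 6 was the lowest. The log2 difference was 0.75 ± 0.18 (adjusted p = 0.00174), the largest of the core in this comparison. Psmb6 and Psmb7, the counterparts of Psmb9 and Psmb10, were higher by log2 differences of 0.42 (adjusted p = 0.0162) and 0.38 (adjusted p = 0.0258), and these calls were lost without IFNAR-/- sample 3 (0.31 and 0.30). The Psmb7 difference rested on 1 of 3 probes, as the other two gave 0.20 and -0.07 and the mean of the probes 0.17, none of them called. Psmb5 was not called (log2 difference 0.53 ± 0.24, adjusted p = 0.0934).

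Markers of other cell types differed between the groups at both times. At 14 h the summed normalized signal of 4 monocyte markers (of 7 listed, Ly6c2, Ccr2 and Csf1r not being measured) was 35258 to 40129 in IFNAR-/- DCs and 974 to 6668 in WT DCs, with all 4 detected on every array of both groups. Neutrophil markers (6 of 8 measured) summed to 2585 to 12242 in IFNAR-/- DCs and 559 to 2811 in WT DCs, and red pulp macrophage markers (8 of 8) to 8234 to 12396 in IFNAR-/- DCs and 5523 to 7332 in WT DCs. T cell markers (5 of 7) summed to 458 to 488 in IFNAR-/- DCs and 3592 to 5436 in WT DCs, with 1 of the 5 detected on no array in IFNAR-/- DCs and 0 in WT DCs. Plasmacytoid DC markers (3 of 5) summed to 1375 to 1577 in IFNAR-/- and 2184 to 4318 in WT DCs. The plasmacytoid DC sum at 4 h ranged over 4232 to 6210 in PRR-/- DCs, 1357 to 1888 in IFNAR-/- DCs and 3845 to 6943 in WT DCs, against 1875 to 4060 in unstimulated DCs. T cell markers at 4 h summed to 779 to 1513 in PRR-/- DCs, 468 to 511 in IFNAR-/- DCs and 824 to 1443 in WT DCs, against 499 to 674 in unstimulated DCs. Erythroid markers (2 of 5) summed to 1871 to 3994 in PRR-/- DCs, 1149 to 2714 in IFNAR-/- DCs and 2050 to 3998 in WT DCs at 4 h, against 449 to 1432 in unstimulated DCs. B cell markers (3 of 6) at 4 h summed to 326 to 363 in PRR-/- DCs and 311 to 341 in IFNAR-/- DCs. They summed to 305 to 347 in WT DCs and to 393 to 509 in unstimulated DCs, above every 4 h sample. NK cell sums (3 of 5) overlapped, with 1686 to 3513 in PRR-/- DCs and 2207 to 4431 in IFNAR-/- DCs. WT DCs had 1754 to 3777 and unstimulated DCs 2782 to 8948. At 4 h the IFNAR-/- DCs thus lay apart from WT DCs in the plasmacytoid DC and T cell sums. WT DCs lay apart from unstimulated DCs in the T cell, B cell and erythroid sums. Of the 5 T cell genes, 4 were detected on no WT array at 4 h, against 3 in IFNAR-/- DCs, 0 in PRR-/- DCs and 3 in unstimulated DCs. The T cell sum of WT DCs at 4 h therefore rested on 1 detected gene. In the erythroid sum, 1 of the 2 genes was detected on no unstimulated array. The red pulp macrophage sum at 4 h was 7527 to 12509 in PRR-/- DCs, 4688 to 7323 in IFNAR-/- DCs and 3774 to 8441 in WT DCs, against 3884 to 6252 in unstimulated DCs, so that every PRR-/- sample lay above every unstimulated one. Monocyte sums overlapped, with 13130 to 33271 in PRR-/- DCs, 7898 to 14516 in IFNAR-/- DCs and 7127 to 22427 in WT DCs at 4 h, against 7974 to 21018 in unstimulated DCs. Neutrophil markers at 4 h summed to 1194 to 1928 in PRR-/- DCs, 1003 to 1905 in IFNAR-/- DCs and 716 to 1274 in WT DCs, against 540 to 868 in unstimulated DCs. The part of these markers in the proteasome differences was not tested. DC markers (10 of 11) summed to 107237 to 110842 in IFNAR-/- DCs and 89757 to 116459 in WT DCs at 14 h.

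Within the cap, WT DCs at 14 h exceeded WT DCs at 4 h in 10 of 16 genes and fell below them in 0, with a median log2 difference of 0.35 (10 and 1 with arrays at 1 median, 11 and 0 without normalization). Over all members 12 were higher (29.3%) and 3 lower (7.32%) at 14 h than at 4 h in WT DCs, while 20.7% of all genes tested were higher and 16.6% lower, and without normalization 17 members were higher and 1 lower. In IFNAR-/- DCs 1 member, Psmb10, was higher at 14 h than at 4 h and 0 were lower, against 4.94% and 2.63% of all genes tested. Without normalization this count was 16 higher and 0 lower, where the median of all genes lay at 0.28. Against unstimulated DCs 7 cap genes rose and 1 fell in WT DCs at 14 h (median log2 difference 0.19), beside 19.6% and 27.7% of all genes tested. The cap lay above the unstimulated mean in IFNAR-/- DCs at 14 h as well. Its class medians of single samples were 0.13 to 0.34 there and 0.13 to 0.39 in WT DCs.

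Psmd7, a cap subunit that pairs with the deubiquitinase Psmd14, had log2 levels of 10.47, 10.11 and 10.29 in IFNAR-/- DCs and 10.51 to 11.33 (median 10.96) in WT DCs at 14 h, against 9.67 to 9.99 (median 9.91) in unstimulated DCs. All 6 WT samples and all 3 IFNAR-/- samples lay above all unstimulated samples. Psmd7 was also called higher in IFNAR-/- DCs at 14 h than in unstimulated DCs. That log2 difference ran from 0.32 to 0.50 with 1 IFNAR-/- sample left out, the call being lost without sample 1 or 3. Psmd7 was the 1 member past a 2-fold rise in WT DCs at 14 h (log2 difference 1.02 ± 0.11, adjusted p = 5.94e-09), and was lower in IFNAR-/- than in WT DCs by a log2 difference of -0.61 ± 0.14 (adjusted p = 0.000916). A second Psmd7 probe gave 0.91 for WT minus unstimulated DCs at 14 h, which was called, and -0.35 for IFNAR-/- minus WT DCs, which was not.

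**Figure D4:**
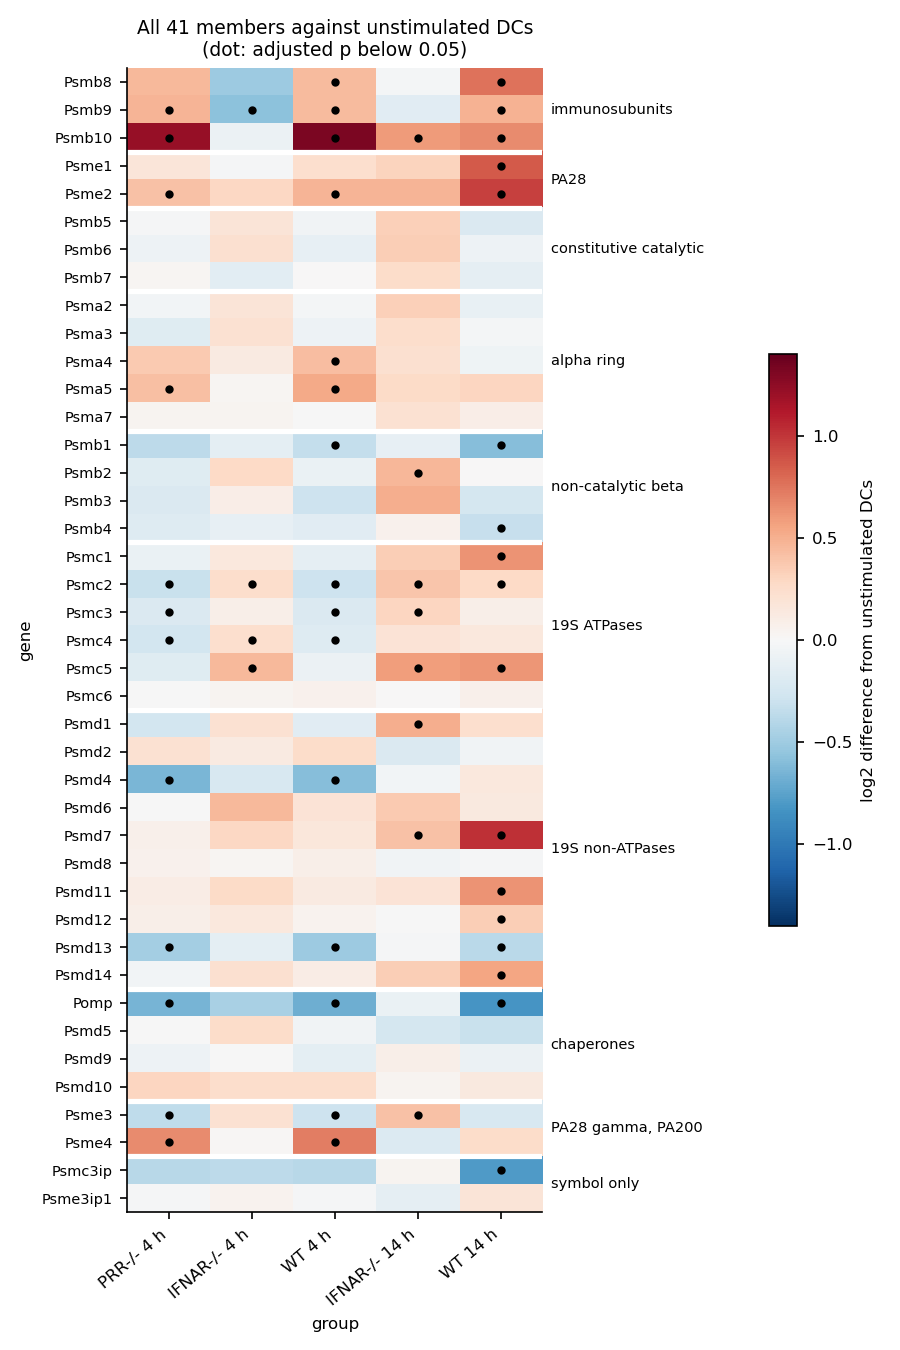
Log2 difference of each of the 41 members (rows, grouped by class) from unstimulated DCs in the 5 poly IC groups (columns), by colour, with a dot where the adjusted p was below 0.05. The immunosubunit rows are above 0 in PRR-/- and WT DCs at 4 h and in WT DCs at 14 h (Psmb8 turns to -0.12 in WT DCs at 4 h without normalization), and Psmb10 is the 1 of them above 0 with a dot in IFNAR-/- DCs at 14 h.

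The difference between IFNAR-/- and WT DCs changed between the time points for some members. The test of the difference at 14 h minus that at 4 h called 2 members higher and 6 lower, while 7.67% of all genes tested were higher and 9.55% lower (1 and 3 with arrays at 1 median, 1 and 1 without normalization). The 8 calls became 5 without IFNAR-/- sample 3 of either time and 4 without IFNAR-/- sample 5 of 4 h. Psmb10 had the largest such change, with IFNAR-/- minus WT log2 differences of -0.07 at 14 h and -1.39 at 4 h, and a difference between them of 1.33 ± 0.21 (adjusted p = 3.89e-05). For Psmb8 and Psmb9 the change of 0.17 and 0.37 was not called (adjusted p = 0.816 and 0.349). The other higher member was Psmb7 (0.54 ± 0.18, adjusted p = 0.0335), with the probe used here. The other two Psmb7 probes gave 0.36 and 0.05, and this call was also lost with neqc (0.54), arrays at 1 median (0.62), no normalization (0.72), no filter on dim probes, the mean of the probes (0.32) or the replicate block (0.40). The 6 lower members were all of the cap, namely Psmc1, Psmc2, Psmc4, Psmc5, Psmd4 and Psmd7, of which Psmc4 and Psmc5 were named after their values had been seen. Psmc2 changed by -0.43 ± 0.11 (adjusted p = 0.00708) and Psmd7 by -0.74 ± 0.18 (adjusted p = 0.00433). Second probes gave -0.44 for Psmd7 and -0.39 for Psmc5, neither of them called.

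**Figure D5:**
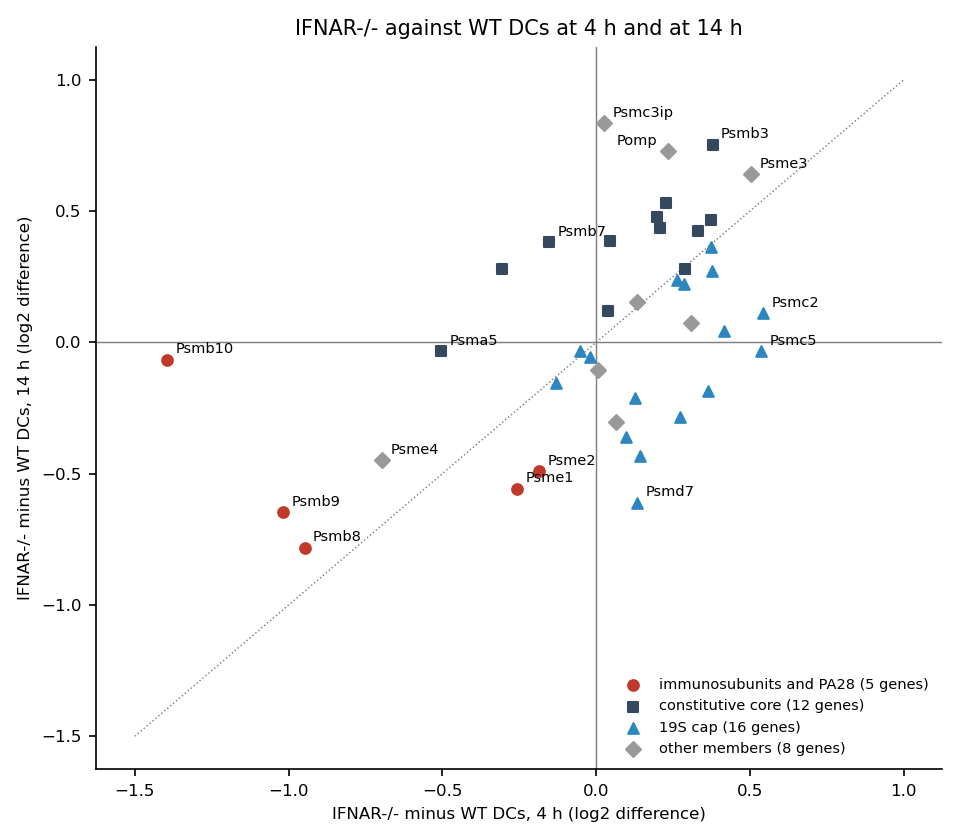
Log2 difference of IFNAR-/- minus WT DCs at 14 h (y axis) against that at 4 h (x axis), with each of the 41 members as a point marked by class and a dotted line where both differences are equal. Psmb10 lies at -1.39 on the x axis and -0.07 on the y axis, Psmb8 and Psmb9 are negative on both axes, and Psme3 and Pomp are positive on both, while the core moves with the scaling at 4 h.

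A 2-fold limit in addition to the adjusted p left few members. Past it were Psmb10 in WT and in PRR-/- DCs at 4 h and Psmd7 in WT DCs at 14 h against unstimulated DCs (1 of 41 each, where 7.19%, 7.28% and 11% of all genes tested passed), and 0 members in IFNAR-/- DCs at 4 h or 14 h (2.96% and 2.48% of all genes). For IFNAR-/- against WT DCs it left Psmb9 and Psmb10 at 4 h (4.62% of all genes) and 0 members at 14 h (9.63%), and for PRR-/- against WT DCs 0 members (0.302%). Between 14 h and 4 h it left 0 members in WT DCs (6.33%) and in IFNAR-/- DCs (1.96%), and Psmb10 for the change of the IFNAR-/- difference (7.02%).

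Pomp, the chaperone that brings the beta ring together and is needed for both forms of the core, fell in WT DCs. Its log2 levels were 13.20, 12.42, 12.37 and 12.77 in PRR-/- DCs, 13.27, 12.78, 12.66 and 12.83 in IFNAR-/- DCs and 12.35 to 13.22 (median 12.52) in WT DCs at 4 h, against 12.81 to 13.68 (median 13.45) in unstimulated DCs. At 14 h they were 13.16, 13.02 and 13.54 in IFNAR-/- DCs and 12.02 to 13.00 (median 12.47) in WT DCs. The WT samples of both times overlapped the unstimulated samples at the upper end of their range, and the IFNAR-/- samples of 14 h lay above every WT sample of that time. The log2 difference of WT from unstimulated DCs was -0.69 ± 0.16 at 4 h (adjusted p = 0.000764) and -0.83 ± 0.17 at 14 h (adjusted p = 0.000225). Against unstimulated samples 1 to 5 alone the value at 4 h was -0.43 and was not called, while that at 14 h was -0.57 and was called. With arrays at 1 median the 4 h value was -0.28 and was not called. IFNAR-/- exceeded WT DCs at 14 h by 0.73 ± 0.23 on the log2 scale (adjusted p = 0.0128), which was not called without IFNAR-/- sample 3 or with arrays at 1 median (0.58 in both). The cap assembly chaperones Psmd9 and Psmd10 had log2 differences of -0.13 and 0.24 from unstimulated DCs in WT DCs at 4 h, neither of them called with the probe used. The other two Psmd10 probes gave 0.43, which was called (adjusted p = 0.00159), and 0.30, which was not.

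The remaining activators differed in direction. Psme3 (PA28 gamma), a nuclear activator, had log2 levels of 8.75, 8.89, 9.03 and 8.69 in PRR-/- DCs, 9.29, 9.59, 9.45 and 9.30 in IFNAR-/- DCs and 8.73 to 9.03 (median 8.96) in WT DCs at 4 h, against 8.93 to 9.49 (median 9.15) in unstimulated DCs. At 14 h they were 9.80, 9.66 and 9.38 in IFNAR-/- DCs and 8.48 to 9.30 (median 8.99) in WT DCs. All IFNAR-/- samples lay above all WT samples of the same time. Psme3 was higher in IFNAR-/- than in WT DCs at 4 h (log2 difference 0.51 ± 0.12, adjusted p = 0.00243) and at 14 h (log2 difference 0.64 ± 0.14, adjusted p = 0.000731). Psme4 (PA200), known for the degradation of acetylated histones, had log2 levels of 11.24, 11.57, 11.30 and 10.93 in PRR-/- DCs, 10.66, 10.59, 10.71 and 10.55 in IFNAR-/- DCs and 11.02 to 11.52 (median 11.36) in WT DCs at 4 h, against 10.12 to 10.97 (median 10.58) in unstimulated DCs. All WT samples lay above all IFNAR-/- and all unstimulated samples. The log2 difference of WT from unstimulated DCs was 0.72 ± 0.11 (adjusted p = 2.08e-06), and that of IFNAR-/- from WT DCs was -0.70 ± 0.13 (adjusted p = 0.000127). For the same comparisons the second Psme4 probe gave log2 differences of 0.36, which was called, and -0.36, which was not. Among the genes that share only the symbol, Psmc3ip, a meiotic recombination factor, fell in WT DCs at 14 h (log2 difference -0.80, adjusted p = 0.000382).

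Genes next to the proteasome in the same pathway were counted from lists. Of the 14 listed genes that supply peptides to MHC class I, 12 were measured, and 6 rose and 0 fell in WT DCs at 4 h (median log2 difference 0.45, against -0.02 over all genes tested), or 3 rose and 2 fell without normalization. In IFNAR-/- DCs 0 of the 12 were called at 4 h, and the direct comparison with WT DCs called 5 lower at 4 h and 7 lower at 14 h in IFNAR-/- DCs, beside 9.75% and 15.3% of all genes tested. It called 0 higher at either time, but 1 at 14 h with neqc or with arrays at 1 median (beside 7 and 8 lower), and 1 at 4 h and 2 at 14 h without normalization (beside 5 lower at each time). Those with the largest changes in WT DCs at 4 h were Tapbpl (log2 difference 1.54, adjusted p = 9.17e-10) and Tapbp (1.53, adjusted p = 1.1e-05), which edit the peptides bound to class I, and the peptide transporter subunit Tap1 (1.43, adjusted p = 5.53e-12). In IFNAR-/- minus WT DCs their log2 differences were -1.17, -1.57 and -1.29 at 4 h and -1.57, -1.09 and -1.38 at 14 h. Of 9 listed regulators of proteasome genes 6 were measured, and 4 rose and 1 fell in WT DCs at 4 h (median log2 difference 0.82). Among all genes tested, 16.9% rose and 29.6% fell in that comparison. Nlrc5, the transactivator of class I genes, rose by 1.86 on the log2 scale (adjusted p = 1.37e-11), Nfe2l2 (NRF2) by 1.12 and Irf1, which drives immunosubunit transcription, by 0.89. Nlrc5 was lower in IFNAR-/- than in WT DCs by log2 differences of -1.37 at 4 h and -1.95 at 14 h. For Irf1 the IFNAR-/- minus WT log2 difference was -0.0031 at 4 h, which was not called, and -1.41 at 14 h, which was. Nfe2l2 was called at neither time (-0.49 and 0.20, adjusted p = 0.0752 and 0.609), although without normalization its 14 h value was 0.59 and was called.

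Assembly and accessory factors whose symbols fall outside the rule gave 0 rises and 3 falls among 8 measured of 14 listed in WT DCs at 4 h (median log2 difference -0.23), beside 29.6% of all genes tested that fell. Arrays at 1 median gave 4 falls and no normalization gave 7. The 3 were the assembly chaperones Psmg2 and Psmg1 and the proteasome-associated ligase Ube3c, with log2 differences of -0.90, -0.44 and -0.37, and all 3 were higher in IFNAR-/- than in WT DCs at 4 h (0.88, 0.42 and 0.59). Of the 5 genes measured among 14 listed that make ubiquitin or bring substrates to the cap, 0 rose and 2 fell in WT DCs at 4 h (median log2 difference -0.11), or 1 with arrays at 1 median and 5 without normalization. The 2 were Vcp, the ATPase that extracts ubiquitinated proteins (-0.52), and the shuttle factor Ubqln4 (-0.27), and both were higher in IFNAR-/- than in WT DCs at 4 h (0.79 and 0.41). With arrays at 1 median the Vcp value in WT DCs was -0.17 and was not called.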

How the data were processed

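The data were deposited as Illumina MouseRef-8 tables of bead signal intensity, with a detection p-value per probe and array that the authors' scanner software gave, and as a table of the authors' processed log2 values, which per the labels were floored at background, quantile normalized and centred on the median in GeneSpring. The intensity values were analysed here, and the processed log2 values (r = 0.967 to 0.990 with them) served as an alternative. On each array, signals were raised to the lowest signal with a detection p below 0.05 (74.4 to 108), turned to log2 and quantile normalized over 36 arrays, which set the lowest log2 level at 6.49. Of 25697 probes, 14202 were detected on at least 3 arrays, and 1719 probes were unlisted in the annotation. The brightest kept probe stood for a gene (9606 genes, of which 2589 had more than 1 kept probe, as did 15 members). Array precision is limited by the number of arrays.

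A model with 1 mean per group was fitted to 33 samples in limma 3.58.1 (R 4.3.3), two-sided, with Benjamini-Hochberg adjustment over 9606 genes, and a gene was called at an adjusted p below 0.05 with no fold limit. A 2-fold limit, used in the study's methods, was counted separately. The tool was tested on simulated data. The labels name no pairing, and matched replicate numbers were taken to pair arrays where every pair's deviations correlated above 0.1. This held for PRR-/- 4 h with unstimulated (r = 0.234 to 0.666), IFNAR-/- 4 h with unstimulated (0.453 to 0.723), PRR-/- with WT at 4 h (0.174 to 0.902) and IFNAR-/- with WT at 4 h (0.119 to 0.892).

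The members and gene lists were chosen with earlier results of these data known. Named members were the immunosubunits, PA28, their constitutive counterparts, Pomp, Psme3 and Psme4, in each other class the highest and lowest change in WT 4 h against unstimulated and IFNAR-/- against WT at 14 h, any member called with a 2-fold difference, and of each pathway list at most 3 called genes. Promoter sequences are RefSeq windows of GRCm38.p6. Another promoter motif that was searched is not reported here. Alternatives were other backgrounds, scalings, probe rules, sample sets, blocks and tests, as the closing section gives. No slide or scan batch is named in the labels.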

Additional observations from a re-analysis of the deposited data

Results flagged for a closer look

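In 11 of 150 tests of a named member in a group of 4 to 10 samples, the highest or lowest sample lay apart from the rest of its group by Dixon's criterion, where chance gives about 1 in 20. Of these, 5 fell on WT sample 6 at 14 h, in which Psma3 (log2 level 12.64, next sample 13.48) and Psmb3 (10.79, next 11.93) were the lowest and Psmc2 (12.80, next 12.64), Psmd4 (13.73, next 13.14) and Psmd13 (12.25, next 11.64) the highest of the group. Without WT sample 6 the members called in IFNAR-/- against WT DCs at 14 h were 9 higher and 5 lower. In IFNAR-/- DCs at 4 h, Psmb8 was low in sample 4 (9.12, next 9.47), Psmc2 high in sample 3 (12.71, next 12.57), Psmd2 high in sample 5 (7.69, next 7.08) and Psme3ip1 low in sample 1-2 (9.66, next 10.15). In unstimulated DCs, Psmb10 was low in sample 3 (11.36, next 11.85) and Psmc6 high in sample 4 (6.55, the others at the floor of 6.49).

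The difference between IFNAR-/- and WT DCs differed between 14 h and 4 h in 8 members by limma's test of that difference (adjusted p in parentheses). On the log2 scale the change was 1.33 for Psmb10 (3.89e-05), 0.54 for Psmb7 (0.0335), -0.56 for Psmc1 (0.0461), -0.43 for Psmc2 (0.00708), -0.37 for Psmc4 (0.0356), -0.57 for Psmc5 (0.00466), -0.55 for Psmd4 (0.0365) and -0.74 for Psmd7 (0.00433). The Psmb10 value ran from 1.17 to 1.5 and the Psmc2 value from -0.48 to -0.35 over the fits that left out 1 sample, all of them called.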

How the results depend on the processing

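Over the named members, 1006 values under an alternative kept their direction and call, 236 kept the direction but not the call, and 5 reversed. The reversed log2 differences were -0.12 for Psmb8 in WT against unstimulated DCs at 4 h, -0.029 and -0.048 for Psme2 in WT and PRR-/- against unstimulated DCs at 4 h and -0.0176 for Psmc2 in IFNAR-/- against unstimulated DCs at 4 h, all without normalization between arrays, and 0.0195 for Psmc2 in WT against unstimulated DCs at 4 h with arrays at 1 median. Without normalization, 30 members were called for WT and 20 for PRR-/- against unstimulated DCs at 4 h, 5 for IFNAR-/- against unstimulated DCs at 14 h, 16 for IFNAR-/- DCs at 14 h against 4 h and 2 for the change of the IFNAR-/- difference between times. That change had 4 calls with neqc, with arrays at 1 median and with no filter on dim probes. With neqc, IFNAR-/- against unstimulated DCs gave 2 calls at 4 h and 5 at 14 h. Fits of only the groups compared gave 7 calls for PRR-/- against unstimulated DCs at 4 h and 2 for IFNAR-/- against WT DCs at 14 h, and the methods' t-test gave 7, 0 for that 14 h comparison (11 before Benjamini-Hochberg) and 5 for IFNAR-/- against unstimulated DCs at 14 h. The replicate block was fitted over all 36 arrays, with arrays 1 and 2 counted apart. It also covered the 14 h groups, whose matched numbers did not all correlate above 0.1. It gave 9 calls for IFNAR-/- against unstimulated DCs at 4 h, 17 at 14 h and 4 for IFNAR-/- DCs at 14 h against 4 h. In the other comparisons its count stayed within 1.5 times. Sets of samples that deviated together, derived from the data, gave 0 calls for IFNAR-/- DCs at 14 h against 4 h when used as a block. Within 3 sets, all 15, 12 and 4 members called for WT, PRR-/- and IFNAR-/- against unstimulated DCs at 4 h kept their direction. So did all 14 called for IFNAR-/- against WT DCs at 4 h. These members were called on the same samples, so that this gives no separate check. Unstimulated samples 3, 6, 7 and 9 lay outside the 3 sets, and unstimulated samples 4 and 5 each stood alone in a set. With a 2-fold limit, 1 member was called for WT at 4 h, PRR-/- at 4 h and WT at 14 h against unstimulated DCs and for the change between times, 2 for IFNAR-/- against WT DCs at 4 h, and 0 in the other comparisons.

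With 1 sample left out, counts ran from 6 to 11 (PRR-/- against unstimulated, 4 h), 2 to 4 (IFNAR-/- against unstimulated, 4 h), 3 to 8 (IFNAR-/- against unstimulated, 14 h), 0 to 0 (PRR-/- against WT), 10 to 13 and 9 to 14 (IFNAR-/- against WT, 4 h and 14 h), 0 to 1 (IFNAR-/- DCs, 14 h against 4 h) and 4 to 9 (change between times). These fits left out a PRR-/- sample, an IFNAR-/- sample or WT sample 6 of 14 h. No other WT sample and no unstimulated sample was left out singly. Leaving out WT sample 6 of 14 h (15 calls against unstimulated, 17 against 4 h) and the use of unstimulated samples 1 to 5 alone were chosen after seeing the data. Those samples gave 7 higher and 4 lower members for WT at 4 h, 6 and 3 for PRR-/- at 4 h, 3 and 0 for IFNAR-/- at 4 h, 14 and 3 for WT at 14 h and 8 and 0 for IFNAR-/- at 14 h. Members at the floor in some arrays (Psmc6, Psmd9, Psmd6) have differences that are limited by signal over background.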
